A study of Mus musculus with 13 samples.

Results

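B cell and plasma cell genes, with the receptor that carries their antibody into the gut, were described in mouse duodenum, where the small intestine begins. The set was named as 9 genes, and a gene was taken from probe sets whose platform annotation gives that 1 symbol, keeping for each gene the brightest probe set by its mean of all arrays. This gave 8 of the 9 genes (11 probe sets) among 12393 genes in all. Mzb1, a protein of the plasma cell secretory pathway, was not analysed here. The measured genes were Cd79a, Cd79b, Ms4a1, Cd22 and Cr2 of B cells, Jchain and Pou2af1 of the antibody-secreting lineage, and Pigr of the epithelium.

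The 13 samples were total RNA from duodenum of mice of mixed strain background, each on its own Affymetrix array. Mice were wild type or carried mutant K-Ras (labelled ViRas), which in the published study is activated in intestinal epithelial cells by a villin-driven Cre, which is directed to the epithelium and not to lymphocytes. For 22 weeks from 5 weeks of age they ate normal diet, high-fat food, or high-fat food to which butyrate, a fatty acid made by gut bacteria, was added. Normal diet had 2 wild-type arrays and 3 of mutants, high-fat diet 2 and 2, and butyrate 1 and 3. Values are log2 RMA levels, with a median per array of 6.04 to 6.14. Array identifiers run in a different number range for each diet, so diet and array series cannot be told apart, whereas genotypes were compared within a series. Nothing but the series design text, which calls the samples mice, says that arrays of a group came from different animals, so a p-value covers the spread among these arrays, which may be technical. The mean of 10 epithelial genes lay between 11.98 and 12.23 on all arrays, and the mean of 13 acinar pancreas genes between 6.24 and 13.46.

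B cells recognise antigen through a surface antibody held by the signalling pair CD79A and CD79B, in which CD22 dampens and CR2, the complement receptor, strengthens the signal. In gut tissue B cells gather in lymphoid follicles, while plasma cells in the lamina propria secrete dimeric IgA joined by the J chain. The polymeric immunoglobulin receptor, made by the epithelium, carries that IgA to the lumen.

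Promoters are shown for 3 genes, taken from the B cell, plasma cell and epithelial parts of the set. They were taken from RefSeq (GRCm38.p6), which had an entry for 6 of the 8 genes. Each is the 250 bases before the gene's start, 5′ to 3′ on the gene's strand, with motif matches in capitals: Cd79a at chr7:24897247-24897496 (plus strand), Jchain at chr5:88527898-88528147 (minus strand) and Pigr at chr1:130826434-130826683 (plus strand).
Cd79a: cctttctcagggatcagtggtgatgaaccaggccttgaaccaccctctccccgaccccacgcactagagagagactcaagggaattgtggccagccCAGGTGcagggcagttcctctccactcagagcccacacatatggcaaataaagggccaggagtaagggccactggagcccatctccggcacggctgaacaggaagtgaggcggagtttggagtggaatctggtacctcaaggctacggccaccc
Jchain: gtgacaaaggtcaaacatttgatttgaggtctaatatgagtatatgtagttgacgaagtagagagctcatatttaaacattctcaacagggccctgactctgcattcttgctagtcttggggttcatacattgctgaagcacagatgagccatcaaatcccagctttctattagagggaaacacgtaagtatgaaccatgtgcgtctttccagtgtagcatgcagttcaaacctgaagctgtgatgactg
Pigr: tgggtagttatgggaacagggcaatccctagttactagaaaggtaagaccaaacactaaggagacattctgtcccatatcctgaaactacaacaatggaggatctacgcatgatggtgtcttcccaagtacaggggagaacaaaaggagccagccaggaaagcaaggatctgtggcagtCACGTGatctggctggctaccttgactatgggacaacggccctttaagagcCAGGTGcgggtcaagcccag
A total of 3 motifs were searched on both strands, and no matches overlap in the promoters shown. CAGGTG, a motif of E proteins, was present in 4 of the 6 promoters (Cd79a, Cd22, Cr2 and Pigr), and in 17.2% of 32851 mouse promoter windows of this length. The Cd22 window (chr7:30879029-30879278) lies inside the annotated gene, which starts at 30880342 on the minus strand. The Cr2 window (chr1:195176720-195176969) lies partly inside its gene, which starts at 195176880 on that strand. These 2 windows are thus not wholly before the annotated gene start. CACGTG, a motif of USF factors, was present in Pigr alone among the 6 and in 6.02% of all windows. ATGCAAAT, the octamer through which the Pou2af1 product acts as a coactivator of Oct factors, was present in 0 of the 6 and in 1.6% of all windows. These matches describe letters in a window only.

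Most of these genes had their highest level on an array of wild-type duodenum on normal diet. For 7 of the 8, the highest of the 13 arrays was a wild-type normal diet array, which held for 21.5% of all genes. Pigr is among the 7 by its chosen probe set only. Its second probe set was highest on wild-type high-fat array 1 (13.035) and read 11.91 and 12.18 on the wild-type normal diet arrays. Among the B cell genes Cd79b was high on both of these arrays and Ms4a1, Cr2 and Cd22 on array 1 only, while Cd79a was highest on a mutant high-fat array.

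**Figure D1:**
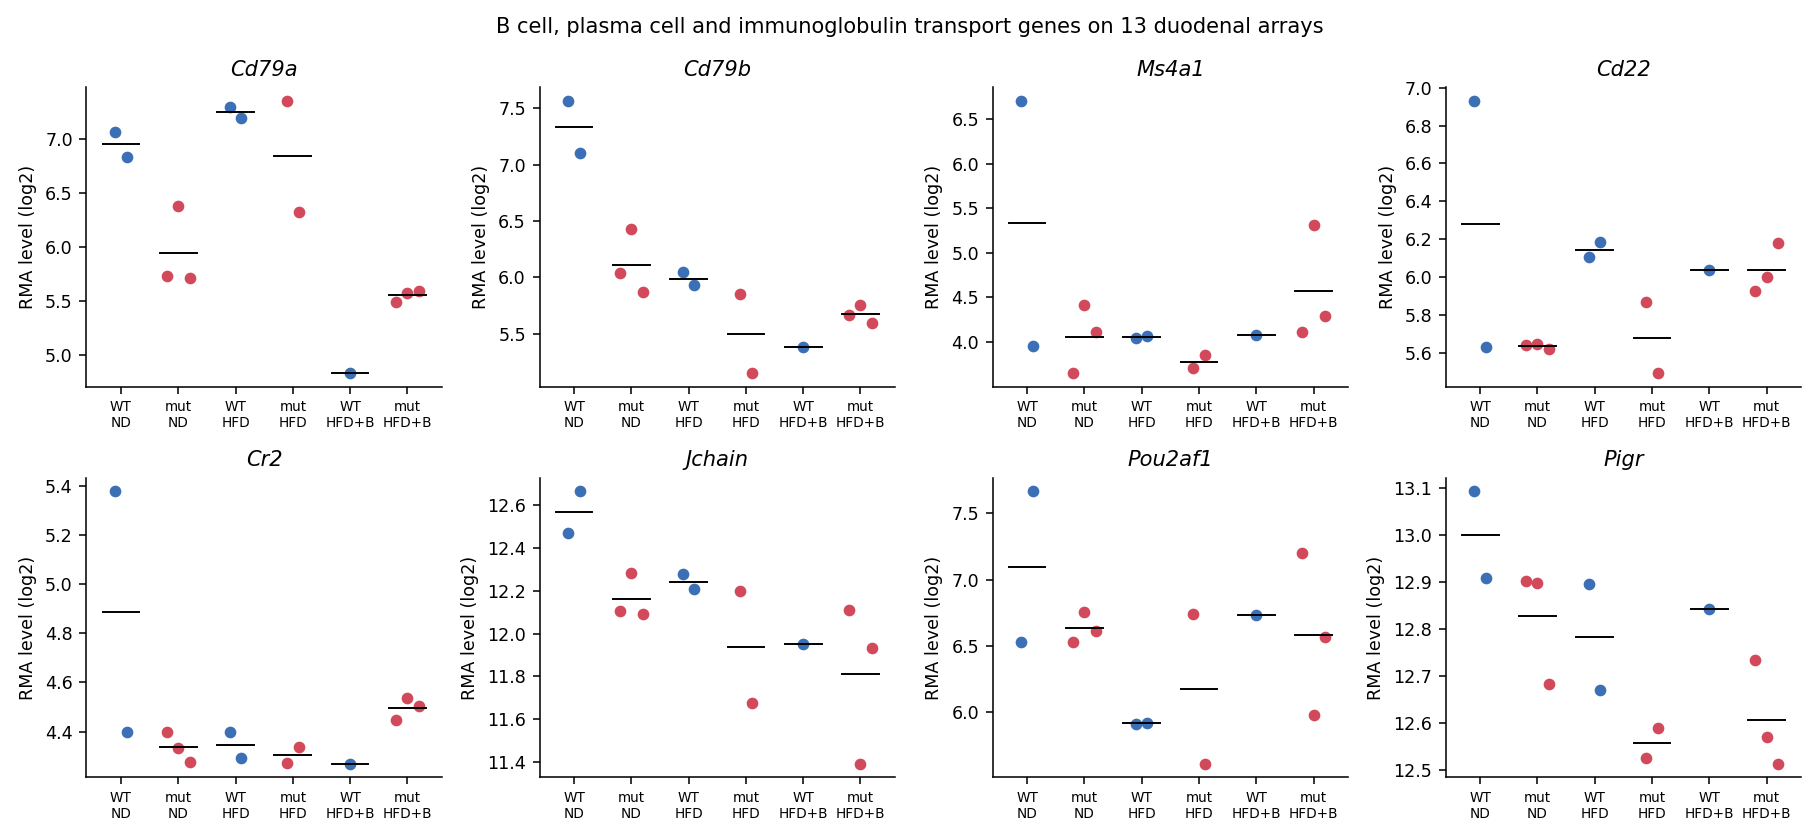
Level of each of the 8 genes (RMA, log2) on each of 13 arrays, in groups of wild type (WT, blue) and mutant (mut, red) on normal diet (ND), high-fat diet (HFD) and high-fat diet with butyrate (HFD+B). Points are arrays and black lines group means. Cd79b was highest on the 2 wild-type normal diet arrays (7.57 and 7.10), and Ms4a1, Cr2 and Cd22 on array 1 of that group.

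Cd79b, one chain of the antigen receptor's signalling pair, had the lowest p of the 8 in the genotype comparison of the 9 arrays without butyrate. Its levels on normal diet were 7.57 and 7.10 in wild type and 6.04, 6.43 and 5.87 in mutants. On high-fat diet they were 6.05 and 5.93 in wild type and 5.85 and 5.15 in mutants. The genotypes did not overlap on either diet. With diet as a term in a limma fit of these 9 arrays, Cd79b fell in mutants by 0.89 ± 0.20 (SE, 1.85-fold, adjusted p = 0.0382). It was the only member called of 8, beside 2.39% of all genes called lower in that comparison. The call was lost when any 1 of the 9 arrays other than mutant high-fat array 1 was left out (adjusted p from 0.0502 to 0.103). It was also lost with array weights (adjusted p = 0.0627). Bulk RNA cannot tell fewer B cells from less of the transcript in each cell.

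Cd79a, the other chain of the pair, was also lower in mutants on normal diet. Wild-type arrays read 7.07 and 6.83 and mutant arrays 5.73, 6.38 and 5.71, with no overlap (-1.01 ± 0.27, adjusted p = 0.169 by limma). On high-fat diet the wild type read 7.30 and 7.20 and the mutants 7.36 and 6.33, which overlapped. Over the 9 arrays the difference was -0.74 ± 0.23 (adjusted p = 0.102 by limma). Leaving out 1 array at a time gave -0.98 to -0.61. The threshold was passed in 1 of these 9 fits (-0.98). That fit left out mutant high-fat array 1, the array with the highest Cd79a level of all 13.

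Ms4a1, which encodes the surface protein CD20, was near the low end of its range on most arrays and high on one. Wild-type normal diet array 1 read 6.70 and array 2 read 3.96, and the other 11 arrays lay between 3.65 and 5.31. The genotype difference on normal diet was -1.27 ± 0.61 (adjusted p = 0.416 by limma). Without wild-type array 1 it was 0.10, and without wild-type array 2 it was -2.64 (adjusted p = 0.0232), so its sign and size rested on that array. Cr2, carried by B cells and by follicular dendritic cells, read 5.38 on the same array and between 4.27 and 4.54 on the other 12. It was dim too, at the 22.0th percentile. Its difference on normal diet was -0.55 ± 0.22 (adjusted p = 0.325), and -0.06 without wild-type array 1. Cd22, an inhibitory lectin of the B cell surface, read 6.93 there, 5.63 on wild-type array 2, and 5.64, 5.65 and 5.62 on the mutant normal diet arrays. Its difference was -0.65 ± 0.28 (adjusted p = 0.381), and less than 0.01 from 0 without array 1. On high-fat diet, where no such array stood out, Cd22 read 6.10 and 6.18 in wild type and 5.87 and 5.49 in mutants (-0.46 ± 0.31, adjusted p = 0.611).

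Wild-type normal diet array 1 held the highest level of many leukocyte genes, some of those of B cells and follicles among them. Across all 12393 genes only 9 (0.0726%) exceeded the next-highest array by 2-fold or more there. Among these were the antibody heavy chain Ighg3 (8.50 against 6.01), Cxcl13, the chemokine that draws B cells into follicles (8.06 against 6.52), Ms4a1 (6.70 against 5.31), Tnfrsf13c, the receptor of the B cell survival factor BAFF (6.10 against 4.74), and Glycam1, a ligand of high endothelial venules (5.37 against 4.15). The other 4 were the heavy chain segment Ighv14-2, the antigen presentation gene H2-DMb2, Cyp2c29, a cytochrome P450, and Mobp, a gene of myelin. All but Ms4a1 were named after their values were seen. Cxcl13, Tnfrsf13c and Glycam1 also belong to the homing list counted next, so that count is not independent of these values. Of 20 measured genes of B cell homing, follicles and survival, 13 were highest on this array, as were 10 of 15 genes of B cell receptor signalling, and 13.9% of all genes. The same held for 6 of 8 genes common to white blood cells, 7 of 12 macrophage genes and 5 of 11 T cell genes, so it was not particular to B cell genes. Other B cell and follicle lists held fewer such genes. Of 12 B cell transcription factors 3 were highest there, as were 2 of 8 antibody genes. For the epithelium over follicles and its M cells it was 2 of 8. Of 20 genes of plasma cell identity and secretion, 1 was highest there. The acinar pancreas mean on this array was 7.14, against 11.43 on the other wild-type normal diet array.

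**Figure D2:**
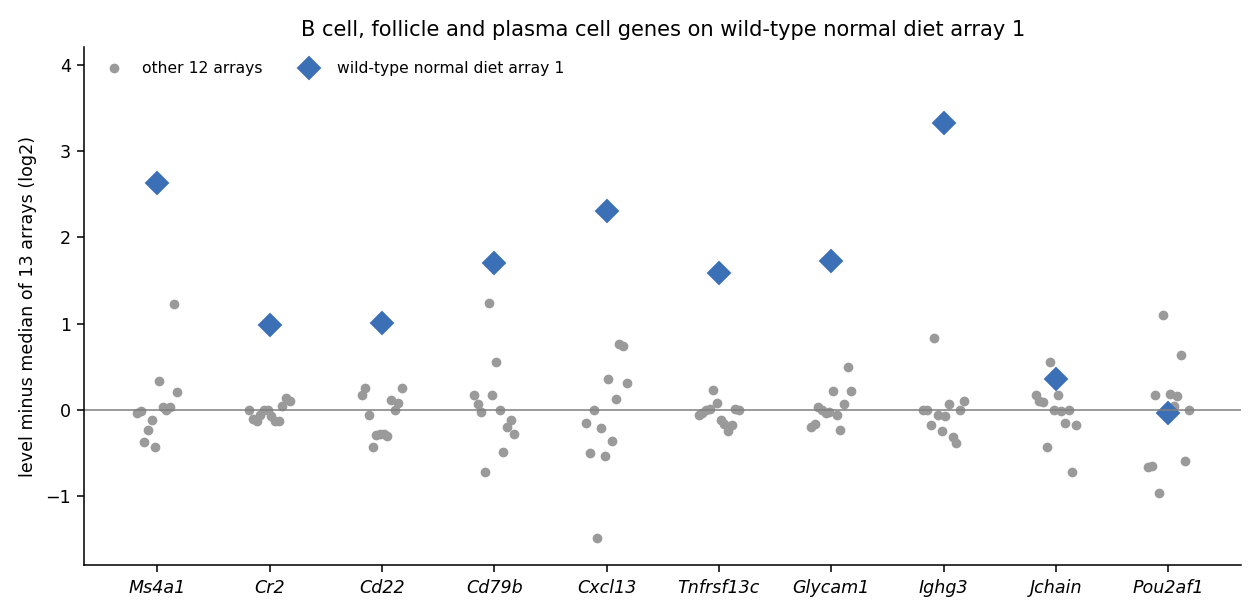
Level of 10 genes on each array as the difference from that gene's median over the 13 arrays (log2). The blue diamond is wild-type normal diet array 1 and grey points are the other 12 arrays. The diamond lies above all grey points for Ms4a1, Cr2, Cd22, Cd79b, Cxcl13, Tnfrsf13c, Glycam1 and Ighg3, and among them for Jchain and Pou2af1. Cxcl13, Tnfrsf13c, Glycam1 and Ighg3 were chosen for their high values on this array. Genes not highest there were left out, such as Cd79a (7.07, against 7.36 on the highest array). Ighm (8.02 against 9.15) and Igha (13.69 against 13.92) were left out too.

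The plasma cell genes Jchain and Pou2af1 were highest on wild-type normal diet array 2, although array 1 held the next-highest Jchain level. Jchain, the joining chain of polymeric antibody, read 12.47 and 12.67 in wild type and 12.11, 12.29 and 12.09 in mutants on normal diet. On high-fat diet it read 12.28 and 12.21 in wild type and 12.20 and 11.67 in mutants. Genotypes did not overlap on either diet, with a difference of -0.36 ± 0.10 over the 9 arrays (1.28-fold, adjusted p = 0.0805 by limma). Leaving out 1 array at a time gave -0.46 to -0.28. The threshold was passed in 1 of these 9 fits, that without mutant high-fat array 1 (-0.46). With butyrate the wild-type array read 11.95, inside the mutant range of 11.39 to 12.11.

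Pou2af1, the coactivator that B cells need for germinal centres and antibody secretion, showed no steady genotype difference. It read 6.53 and 7.67 in wild type on normal diet and between 6.53 and 6.76 in mutants, and 5.91 and 5.92 in wild type on high-fat diet against 6.74 and 5.61 in mutants. The mutant minus wild-type difference was -0.47 ± 0.40 on normal diet (adjusted p = 0.661 by limma) and 0.26 ± 0.44 on high-fat diet (adjusted p = 0.866). Without wild-type normal diet array 2, which had its highest level, the first was 0.10.

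Pigr was 0.17 to 0.24 lower in mutants in each diet by the probe set chosen. On normal diet it read 13.09 and 12.91 in wild type and 12.90, 12.90 and 12.68 in mutants. On high-fat diet it read 12.89 and 12.67 against 12.52 and 12.59, and with butyrate 12.84 against 12.73, 12.57 and 12.51. No diet showed overlap, but the size was small, at -0.21 ± 0.06 over 13 arrays (1.15-fold, adjusted p = 0.119 by limma). The second probe set gave -0.03 ± 0.07 over 13 arrays (adjusted p = 0.865) and a positive difference, 0.07, on high-fat diet.

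Over all 13 arrays with diet as a term, each of the 8 genes had a negative genotype difference, as 48.5% of all genes did. The median of the 8 was -0.34, against 0.01 for all genes. By limma 0 of the 8 passed, beside 1.02% of all genes, and 4 of the 8 (Cd22, Cd79b, Jchain and Pigr) had an unadjusted p under 0.05, beside 16.5%. On normal diet the mutant arrays lay wholly below the wild type for 4 genes (Cd79a, Cd79b, Jchain and Pigr), a pattern of 12.4% of all genes. On high-fat diet they did so for 5 (Cd22, Cd79b, Ms4a1, Jchain and Pigr), a pattern of 20.2%. By limma 0 members passed on either diet alone, where 0.0242% and 0.0403% of all genes did. An unadjusted p under 0.05 was seen for 4 members on normal diet, beside 12.7% of all genes, and for 0 on high-fat diet, beside 11.3%. The mutant mean was below the wild-type mean on both diets for 7 members, all but Pou2af1, and for 26.8% of all genes. Leaving out wild-type normal diet array 2 gave 4 calls on normal diet (Cd79b, Ms4a1, Cd22 and Cr2), each resting on array 1 as the single wild-type array. Cr2 changed sign on high-fat diet without wild-type high-fat array 1, and Ms4a1 and Cr2 over 13 arrays without wild-type normal diet array 1 (0.07 and 0.03).

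With butyrate the single wild-type array lay below the mutants for several B cell genes. It read 4.83 for Cd79a, below the mutants at 5.49, 5.57 and 5.59. For Cd79b it read 5.38, below 5.67, 5.75 and 5.59, and for Ms4a1 4.08, below 4.11, 5.31 and 4.29. By limma 0 of the 8 genes passed there, as did 0% of all genes, and 0 of the 8 had an unadjusted p under 0.05, beside 6.04% of all genes. The mutant arrays lay wholly above the single wild-type array for 4 of the 8 (Cd79a, Cd79b, Ms4a1 and Cr2), a pattern of 22.6% of all genes, and wholly below it for Pigr, a pattern of 28%. In the tests of whether the genotype difference itself differed between high-fat and normal diet, or between butyrate and the other diets, 0 of the 8 passed, beside 0.00807% of all genes in each. The unadjusted p was under 0.05 for 1 member in the first, beside 5.01% of all genes, and for 2 in the second, beside 7.08%.

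**Figure D3:**
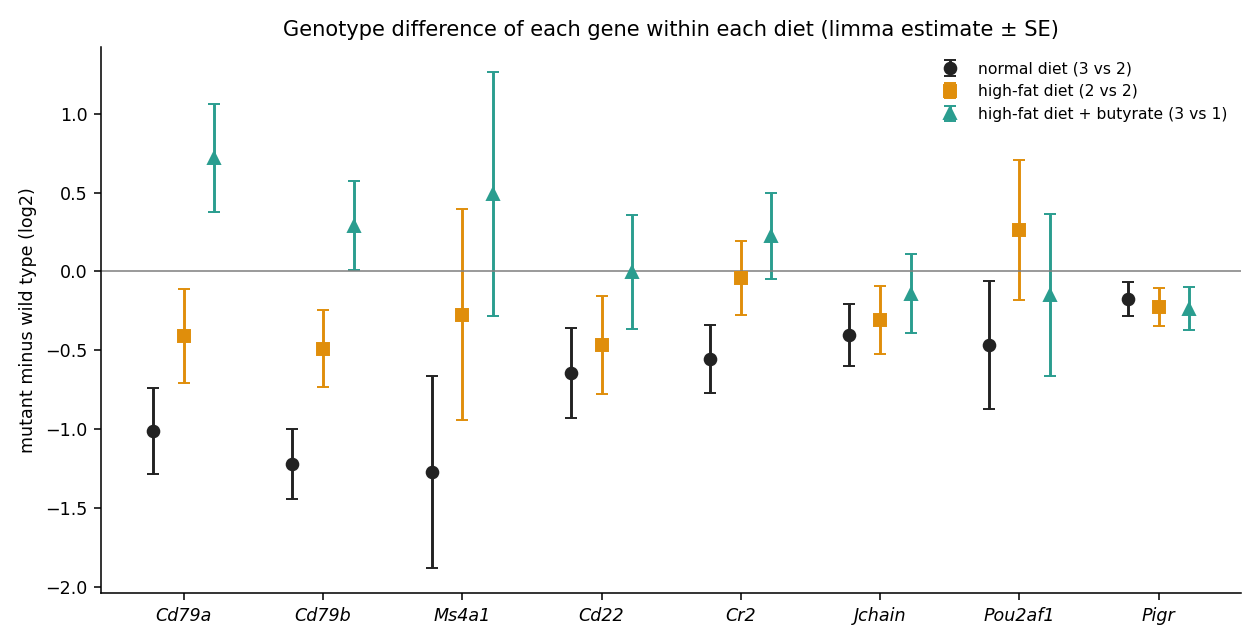
Mutant minus wild-type difference (log2, limma estimate with its SE as the bar) of each gene on normal diet, on high-fat diet and with butyrate, with the number of mutant and wild-type arrays in the key. The estimates for Cd79a run from -1.01 on normal diet through -0.41 on high-fat diet to 0.72 with butyrate, where the wild type is 1 array.

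Other leukocyte genes were lower in the same arrays. Of 8 genes common to white blood cells, 7 fell in mutants in the 9 arrays, where 2.39% of all genes were called lower, among them Ptprc, the CD45 phosphatase (-0.95 ± 0.12, adjusted p = 0.00335), and Cd53 (-1.09 ± 0.12). Their mean level ranged from 8.21 to 8.69 in wild type and from 7.37 to 7.65 in mutants on normal diet, and from 7.999 to 8.19 and from 7.11 to 7.49 on high-fat diet. With butyrate it was 7.76 in wild type and 7.42 to 7.96 in mutants. Of 12 macrophage genes 9 fell, with a mean from 7.73 to 8.06 in wild type and from 6.69 to 7.43 in mutants over the 2 diets. Of 11 T cell genes 2 fell, Cd3d (-0.87 ± 0.16) and Cd3g (-0.95 ± 0.16). The part of these cells in the B cell results was not tested.

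Further genes of B cells and plasma cells changed singly. The lists were compared in the 9 arrays without butyrate, where 4.63% of all genes were called in either direction. Of 15 measured genes of B cell receptor signalling (20 listed), 2 fell and 0 rose (median -0.15). They were Prkcb, the kinase that links the receptor to NF-kappaB (-0.83 ± 0.16, adjusted p = 0.0219), and the inhibitory receptor Cd72 (-0.62 ± 0.15, adjusted p = 0.043). Cd37, a B cell tetraspanin, differed by -0.70 ± 0.20 (adjusted p = 0.0731). Of 12 B cell transcription factors (14 listed) 0 passed by limma (median -0.02), and 3 had an unadjusted p under 0.05, beside 18.4% of all genes. The smallest p there belonged to Bcl11a (-0.43 ± 0.12, adjusted p = 0.0631). The next smallest belonged to Bach2, which was higher in mutants (0.51 ± 0.15, adjusted p = 0.0854).

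Of 20 genes of plasma cell identity and secretion, 2 fell (median -0.16). They were Creld2 (-0.56 ± 0.11, adjusted p = 0.02) and the endoplasmic reticulum chaperone Hsp90b1 (-0.35 ± 0.08, adjusted p = 0.0319), both made by other secretory cells too. Hsp90b1 also fell over 13 arrays (-0.36 ± 0.07, adjusted p = 0.0412). Tnfrsf13b, the TACI receptor of B and plasma cells, differed by -0.63 ± 0.16 (adjusted p = 0.0565). Of 8 measured antibody genes (19 listed), Iglv1, a lambda light chain segment, fell by 1.33 ± 0.30 on the log2 scale (adjusted p = 0.0356), and Ighm, the IgM heavy chain, differed by -1.09 ± 0.35 (adjusted p = 0.111). Antibody segments are near-identical copies, so their probe sets may read several. Of 20 homing and follicle genes (24 listed) Itgb7, a chain of the gut-homing integrin, fell (-0.42 ± 0.10, adjusted p = 0.0452). Ccr9, the receptor that brings plasma and T cells to the small intestine, differed by -0.74 ± 0.20 (adjusted p = 0.0671). Ltbr of the same list differed in the other direction, by 0.32 ± 0.09 (adjusted p = 0.066).

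Between diets the 2 chains of the receptor pair gave different values. In wild type Cd79b fell by 1.34 ± 0.24 on high-fat diet (2.54-fold, adjusted p = 0.00688 by limma), from 7.57 and 7.10 to 6.05 and 5.93, while Cd79a differed by 0.30 ± 0.30 (adjusted p = 0.573). Leaving out array 2 of the wild type on high-fat diet ended the Cd79b call (-1.29 with adjusted p = 0.0527), as did a fit of only the groups compared (adjusted p = 0.0619). In mutants Cd79a rose by 0.90 ± 0.27 (adjusted p = 0.0418), although mutant high-fat array 2 (6.33) lay inside the normal diet range. That call was lost without mutant high-fat array 1 (0.39, adjusted p = 0.376) and without any of 6 other arrays (wild-type high-fat 1 or 2, mutant normal diet 1 or 3, mutant butyrate 1 or 3). Cd79b differed by -0.61 ± 0.22 in the mutants (adjusted p = 0.0828), with no overlap. Of the 8 genes 1 was called in each genotype, beside 11% of all genes in wild type and 17.7% in mutants. Whether the 2 chains differ from each other in their response was not tested.

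Cd79a was lower in mutants given butyrate than in those on high-fat diet alone. It fell by 1.29 ± 0.27 (2.45-fold, adjusted p = 0.00681 by limma), from 7.36 and 6.33 to 5.49, 5.57 and 5.59, and the groups did not overlap. Without mutant high-fat array 1 the difference was -0.78 (adjusted p = 0.0695). All 4 butyrate arrays lay below the other 9 arrays for Cd79a alone among the 8 genes, and for 2.24% of all genes. Cd79b read between 5.59 and 5.76 there and differed by 0.17 ± 0.22 (adjusted p = 0.637). In this comparison 1 of the 8 was called, beside 21.7% of all genes. The high-fat arrays of the mutants enter both diet comparisons of the mutants.

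The diet values of the remaining B cell genes rested on wild-type normal diet array 1. High-fat minus normal diet in wild type was -1.28 ± 0.67 for Ms4a1, -0.54 ± 0.24 for Cr2 and -0.14 ± 0.31 for Cd22 (adjusted p = 0.248, 0.167 and 0.823 by limma). Without that array these were 0.09, -0.05 and 0.51. Without array 2 they were -2.65, -1.03 and -0.79, each past the threshold. Pou2af1 differed by -1.18 ± 0.44 (adjusted p = 0.112), with 5.91 and 5.92 below 6.53 and 7.67. It passed in 1 of 13 fits that each left out 1 array, that without array 1 (-1.75).

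Some genes of the plasma cell secretory list changed with diet in both genotypes. The list holds genes made by other secretory cells too, Creld2 among them, and which cells changed was not tested. On high-fat diet 4 of 20 were lower and 1 higher in wild type (Tnfrsf17, Sec11c, Creld2 and Fkbp2 lower, Sel1l higher), and 4 lower and 1 higher in mutants (Fkbp11, Sec11c, Creld2 and Fkbp2 lower, Sel1l higher). Among all genes 11% were called in either direction in wild type and 17.7% in mutants, so the share in mutants was near that of all genes. Tnfrsf17, the BCMA receptor that plasma cells need to survive, fell by 1.04 ± 0.27 on the log2 scale in wild type (adjusted p = 0.0324). Sec11c, a subunit of the signal peptidase, fell by 0.90 ± 0.22 in wild type and by 1.15 ± 0.20 in mutants. It rose by 0.90 ± 0.20 when butyrate was added in mutants, a comparison that uses the same mutant high-fat arrays.

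Pigr gave opposite results by its 2 probe sets. By the chosen probe set high-fat minus normal diet was -0.22 ± 0.12 in wild type and -0.27 ± 0.11 in mutants, and butyrate minus high-fat diet in mutants was 0.05 ± 0.11 (adjusted p = 0.265, 0.11 and 0.802 by limma). By the second, examined after its values were seen, the levels on high-fat diet were 13.03, 12.73, 12.97 and 12.93, and the other 9 arrays lay between 11.84 and 12.18. In a fit of all single-gene probe sets it rose on high-fat diet by 0.84 ± 0.12 in wild type (adjusted p = 0.00145) and by 0.98 ± 0.11 in mutants (adjusted p = 0.000219), and fell by 0.98 ± 0.11 with butyrate (adjusted p = 0.000132). The mean of both probe sets gave 0.31, 0.35 and -0.47. Whether the probe sets differ from each other was not tested, and the direction of Pigr with diet is therefore not settled by these arrays.

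**Figure D4:**
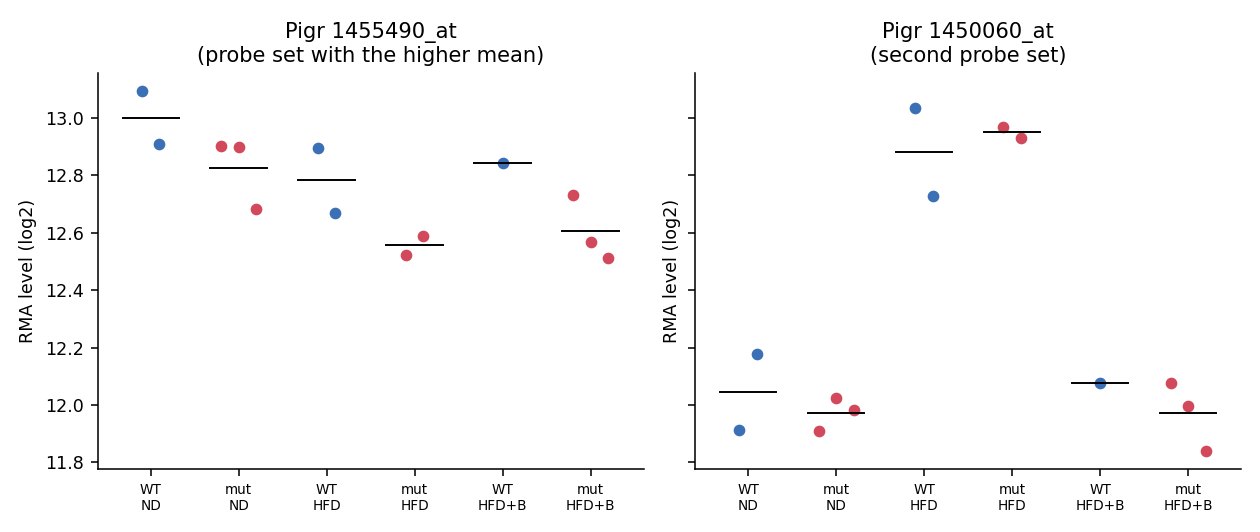
Level of Pigr (RMA, log2) by its 2 probe sets on each of 13 arrays, by group, with wild type (WT) in blue and mutants (mut) in red and group means as black lines. The chosen probe set (left) lies between 12.51 and 13.09 in every group, and the second (right) is higher on the 4 high-fat arrays than on the other 9.

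Among 10 measured regulators and partners of Pigr (13 listed), 5 rose in mutants on high-fat diet, beside 7.67% of all genes. They were Ifngr2, a chain of the interferon gamma receptor (1.07 ± 0.19, adjusted p = 0.00344), the interferon regulatory factor Irf1 (0.72 ± 0.15), Usf1 (0.65 ± 0.18), Usf2 (0.50 ± 0.12) and Fcgrt, the neonatal receptor of IgG (0.59 ± 0.13). In wild type Ifngr2 (1.04 ± 0.20) and Fcgrt (0.85 ± 0.14) rose, beside 5.62% of all genes. With butyrate 5 fell in mutants, namely Ifngr2, Usf1, Usf2, Fcgrt and Tnfrsf1a, beside 8.78% of all genes. The mutant high-fat arrays enter both of these comparisons of mutants.

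Genes with the most similar pattern were found by Pearson's r over the 13 arrays, as a description over arrays that share diets and array series. For Jchain they were Tnfrsf13b (r = 0.945), the kappa segment Igkv8-30 (0.943) and Tmem176b (0.929), and without wild-type normal diet array 1 these were 0.937, 0.936 and 0.923. For Cd79b they were Cd37 (0.914), Lat2 (0.905) and Otulin (0.896). For Pou2af1 they were Hsd11b1 (0.896), Eaf2 (0.874) and Cebpd (0.872). For Cd79a they were Ube2n (0.92), Septin1 (0.917) and Stom (0.914), none of them in the B cell lists used here. For Cd22 they were Plekho1 (0.902), Cd6 (0.851) and Mefv (0.849), and for Pigr the mitochondrial gene ND5 (0.931), Cdk2ap2 (0.853) and Dlgap5 (0.835). Without wild-type normal diet array 1, r was 0.791, 0.629 and 0.785 for the partners of Cd22. It dropped further for some partners of Cr2 and Ms4a1. For Cr2, Ighg3 had r = 0.907 over 13 arrays and -0.02 without it, and Mettl21a and Hrk dropped from 0.903 and 0.885 to 0.427 and 0.376. For Ms4a1, Hrk, Cxcl13 and Omg dropped from 0.874, 0.846 and 0.831 to 0.491, 0.603 and 0.277.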

How the data were processed

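The authors' deposited values are log2 expression levels of 22690 probe sets, made with Affymetrix Expression Console 1.1 by RMA, per the submitters' processing notes. A genome build was not given in the sources used here. Of the probe sets, 20380 have 1 gene symbol, and the probe set with the highest mean was kept for each of 12393 genes. Tests used limma 3.58.1 in R 4.3.3 with eBayes and its trend on mean level. Tests were two-sided, adjusted over all genes by Benjamini and Hochberg, with a threshold of 0.05, and every adjusted p comes from limma. Genotype was fitted with diet as a term over 13 arrays and over 9 arrays, and other comparisons as contrasts of 6 group means over 13 arrays, which assumes that the lone wild-type butyrate array varies like the rest. RMA sets levels relative to the rest of the array. The fit was tested on simulated data. The members and lists were chosen with earlier results of these data known. Named were the members, up to 4 genes of each list with the smallest p, genes past the threshold, and for each member the 3 most similar genes above the 30th percentile of level. Of 21 pairs of arrays with the same replicate number, 7 correlated above 0.1 in their deviations, so the numbers were not taken as pairs. Alternatives were quantile normalization, a filter on dim genes, the mean of probe sets, no trend, array weights, a replicate block, only the groups compared and leaving out each array, and, chosen after seeing the data, the other probe sets of Ms4a1, Cd22 and Pigr.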

Additional observations from a re-analysis of the deposited data

Results flagged for a closer look

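Cd79a, Cd79b and Ms4a1 were picked out because their mutant arrays all lay below the wild type on normal or high-fat diet and all above it with butyrate. Ms4a1 is a dim gene, at the 20.6th percentile of mean level. The butyrate part of this pattern alone was seen for 22.6% of all genes, and the share with the whole pattern was not counted. The values that picked these genes also enter the tests below, which are therefore no separate support. The genotype difference with butyrate exceeded the mean of that on the other 2 diets by 1.43 ± 0.40 for Cd79a (unadjusted p = 0.00409, adjusted p = 0.639 by limma) and by 1.15 ± 0.33 for Cd79b (unadjusted p = 0.00475, adjusted p = 0.639). For Ms4a1 it was 1.26 ± 0.90 (adjusted p = 0.826). None of the 3 passed, each rests on 1 wild-type butyrate array, and 0.00807% of all genes passed. Between high-fat and normal diet the genotype difference changed by 0.60 ± 0.40 for Cd79a and 0.73 ± 0.33 for Cd79b (adjusted p = 0.915 for each by limma).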

How the results depend on the processing

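Of 53 results for single members, 36 kept their direction in every alternative run and 23 also kept their side of the threshold. These 53 are the member results chosen for printing, and the other member results were not counted. The cause of each change below was not tested. In the genotype comparison of 13 arrays 127 genes passed, 58 without the trend and 221 with the replicate block. In that of 9 arrays the member count went from 1 to 0 with array weights (Cd79b -0.76, adjusted p = 0.0627 by limma) and to 0 with the replicate block (Cd79b -0.79, adjusted p = 0.088), and the genes from 574 to 244 with the block. On normal diet 3 genes became 1 with array weights, 0 with the block and 36 with only the groups compared, and on high-fat diet 5 became 3 without dim genes and 14 with array weights. For diet in wild type 1368 genes became 637 with array weights and 116 with only the groups compared, where 0 members passed (Cd79b adjusted p = 0.0619). For diet in mutants 1 member became 2 with the mean of probe sets, 2 with array weights (Cd79b -0.61, adjusted p = 0.0474), 0 with the replicate block (Cd79a 0.85, adjusted p = 0.0965) and 0 with only the groups compared (adjusted p = 0.0885). For butyrate 1 became 2 with the mean of probe sets. The genotype by diet difference of 1 gene became 2 with quantile normalization, the mean of probe sets, or only the groups compared.

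Pigr reversed with its other probe set on high-fat diet (0.067 between genotypes), in wild type (0.84), in mutants (0.98) and with butyrate (-0.98), and with the mean of probe sets (0.31, 0.35 and -0.47 in the last 3). Leaving out 1 array at a time gave 0 to 1 members and 2 to 329 genes over 13 arrays, 0 to 3 and 265 to 582 over 9 arrays, 0 to 4 and 0 to 174 on normal diet, 3 to 105 genes on high-fat diet, 0 to 4 and 439 to 1522 for diet in wild type, 0 to 1 and 990 to 2579 for diet in mutants, 0 to 1 and 1317 to 3085 for butyrate, and 1 to 10 and 1 to 2 genes for the 2 tests of differing genotype effects. Signs turned in these ranges for Ms4a1 (-0.82 to 0.067), Cr2 (-0.32 to 0.033) and Pou2af1 (-0.33 to 0.091) over 13 arrays, and Pou2af1 (-0.41 to 0.19) over 9. They turned on normal diet for Ms4a1 (-2.64 to 0.098), Cd22 (-1.29 to 0.0038) and Pou2af1 (-1.03 to 0.10), and on high-fat diet for Cd79a (-0.92 to 0.11), Cr2 (-0.094 to 0.012) and Pou2af1 (-0.30 to 0.83). They also turned for diet in wild type in Ms4a1 (-2.65 to 0.094) and Cd22 (-0.79 to 0.51), and for butyrate in Cd79b (-0.18 to 0.52) and Pigr (-0.016 to 0.094). The block left out the wild-type butyrate array, whose label has no number, and neither it nor leaving that array out gave a value for the 2 comparisons that need it. Signal over background could not be judged from RMA values, and the number of arrays limits precision.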

Other observations

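Igha, the IgA heavy chain, read 13.69 and 13.92 in wild type and 13.68, 13.77 and 13.50 in mutants on normal diet. On high-fat diet it read 13.86 and 13.74 against 13.83 and 13.60, and with butyrate 13.71 against 13.79, 13.43 and 13.69, so the genotypes overlapped on each diet. Ighm, the IgM heavy chain, varied more, from 6.62 to 9.15. It read 8.02 and 9.15 in wild type and 7.10, 7.39 and 6.62 in mutants on normal diet, 8.90 and 8.05 against 8.56 and 7.32 on high-fat diet, and 6.96 against 7.13, 6.95 and 7.69 with butyrate. Levels of different probe sets are not compared with each other here.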
